A study of Mus musculus with 96 samples.

Results

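The 8 genes described here are enzymes of cholesterol synthesis and, in the case of Insig1, a protein of the sterol sensor. They are Hmgcs1, Idi1, Fdps, Fdft1, Sqle, Lss, Cyp51 and Insig1, taken by symbol from a count table of 55487 genes. All 8 were among the 14463 genes with at least 10 counts in at least 10% of the cells, which are called the tested genes below. None of the 8 takes up cholesterol, so uptake genes are described only as a separate list.

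The cells were cultured horizontal basal cells (HBCs), the reserve stem cells of the olfactory epithelium. Tissue came from wild-type mice aged 6 to 8 weeks, 2 days after an injection of methimazole, a drug that injures this epithelium. Single cells dividing on a tropoelastin-then-fibronectin substrate were followed by live imaging, and both daughters of each of 48 divisions were picked and sequenced, which gave 96 cells. All cells belong to 1 condition and the labels name no animal or culture, so the values below describe these cells and no test of a condition was possible. The deposited cells fall into 12 sets of 8 cells, or 4 pairs, by the names under which they were deposited.

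Cells make cholesterol from acetyl-CoA by way of mevalonate, isoprenoids, squalene and lanosterol. When sterols in the endoplasmic reticulum are scarce, the transcription factor SREBP2 is released and raises the genes of this route. When sterols are plentiful, INSIG proteins hold SREBP2 and its escort SCAP in the endoplasmic reticulum. Dividing cells need cholesterol for new membrane.

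The promoter of a sterol-responsive gene often holds a sterol regulatory element beside boxes for the factors NF-Y (CCAAT) and Sp1 (GGGCGG), so these letters are shown first. RefSeq (GRCm38.p6) promoter entries covering 250 bases before to 50 after the start were present for 5 members, Hmgcs1, Idi1, Lss, Cyp51 and Insig1. Fdps, Fdft1 and Sqle had no entry. In the sequences below, capitals mark matches to TCACNCNA, a form of the sterol regulatory element, and to CCAAT, each on either strand (ATTGG is CCAAT read on the other strand). Hmgcs1 is shown for all 250 bases before its start and the others for 30 bases around the CCAAT match nearest the start.
Hmgcs1, chr13:119690101-119690350, plus strand: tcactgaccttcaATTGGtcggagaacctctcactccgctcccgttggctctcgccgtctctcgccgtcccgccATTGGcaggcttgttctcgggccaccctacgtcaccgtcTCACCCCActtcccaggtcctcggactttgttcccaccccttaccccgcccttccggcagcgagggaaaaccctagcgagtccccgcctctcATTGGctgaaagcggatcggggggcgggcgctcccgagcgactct
Idi1, chr13:8885576-8885605, plus strand: catggtccaaggtgccATTGGctggcgacc
Lss, chr10:76531531-76531560, plus strand: ggtgatgctctgATTGGccgagctcgcatc
Cyp51, chr5:4104709-4104738, minus strand: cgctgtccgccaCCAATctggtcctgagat
Insig1, chr5:28071184-28071213, plus strand: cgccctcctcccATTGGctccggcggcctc

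CCAAT was found in 5 of the 5 member promoters, against 37.4% of 32851 promoters of the same length. GGGCGG, on either strand, was also found in 5 of 5, against 35.7% of all promoters. TCACNCNA was found in 1 of 5, Hmgcs1, where it began 137 bases before the start, against 11% of all promoters. These are matches of letters and not measured binding. The printed stretches of Idi1 and Cyp51 lie inside the gene spans that the deposited tables give, which begin further upstream than RefSeq's.

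All 8 members had a count in each of the 96 cells, and no count was under 10. Together they took 0.331% of a cell's gene counts (median, range 0.13% to 0.618%). Counts per cell on genes ranged from 29454150 to 44849003, so depth did not limit detection. Counts were divided by a size factor from 22 ERCC spike-in transcripts, RNAs added in equal amount to every lysate, and are called normalized counts. The size factors ran from 0.378 to 1.89.

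Per unit of transcript length, Fdps was by far the most abundant member. This gene makes farnesyl diphosphate, where the sterol and isoprenoid branches part (chromosome 3, 89093588 to 89101959, minus strand). Its median was 1380 TPM (transcripts scaled to a fixed total per cell; range 137.6 to 3096), it exceeded Idi1 in 96 of 96 cells, and only 0.678% of tested genes had a higher median TPM. Idi1, an isomerase of the isoprenoid stage, came next at a median of 221.8 TPM, followed by Cyp51 at 207.5, Sqle at 189.9, Hmgcs1 at 183.8 and Fdft1 at 160.3. Neighbours among these genes overlapped widely, since the higher of each adjacent pair exceeded the lower in between 50 and 58 of 96 cells. Lss lay lower at 79.6 TPM, below Fdft1 in 84 of 96 cells. Insig1 was lowest at 45.3 TPM, below Lss in 69 of 96 cells.

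Hmgcs1, which makes the HMG-CoA that enters the mevalonate route, lies on chromosome 13 (119690379 to 119708260, plus strand). Its normalized count ran from 1847 to 45080 with a median of 12830. Idi1 (chromosome 13, 8885501 to 8892451, plus strand) ran from 4518 to 55838 with a median of 13922. The upper quartile of Hmgcs1 was 2.24 times its lower quartile, and for Idi1 this ratio was 2.03.

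Fdps ran from 5539 to 170460 normalized counts with a median of 37438, and its ratio of upper to lower quartile was 1.74, the smallest of the 8. Fdft1, squalene synthase, commits carbon to sterols (chromosome 14, 63145150 to 63179578, minus strand) and ran from 937 to 34654 with a median of 9680. Sqle, squalene epoxidase, a rate-limiting oxygen-using step (chromosome 15, 59315077 to 59331192, plus strand), ran from 1012 to 38385 with a median of 11033. Most cells therefore lay within a few-fold of each other for these genes, with single cells far below. For Fdps, cell 1 of pair 47 also lay far above.

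Lss closes the ring to lanosterol (chromosome 10, 76531588 to 76557138, plus strand). Its normalized counts ran from 22.4 to 50172 with a median of 9226. The lowest value was a single cell, cell 1 of pair 26, which had 27 counts, where the next lowest cell had 985. Cyp51, which removes the 14-alpha methyl group of lanosterol (chromosome 5, 4081145 to 4104746, minus strand), was the steadiest from end to end, from 5386 to 46797 with a median of 18245, an 8.69-fold range.

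Insig1, by the SD of its log2 values, was the most variable member (chromosome 5, 28071363 to 28078662, plus strand). It ran from 91.4 to 13413 normalized counts with a median of 2720, and its upper quartile was 4.27 times its lower quartile. The SD of its log2 normalized count was 1.63, against 1.46 for Lss and 0.7 to 0.99 for the other 6. A level under 10% of the median was found in 5 cells for Insig1, 4 for Lss, 1 each for Fdft1 and Sqle and 0 for the others.

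**Figure D1:**
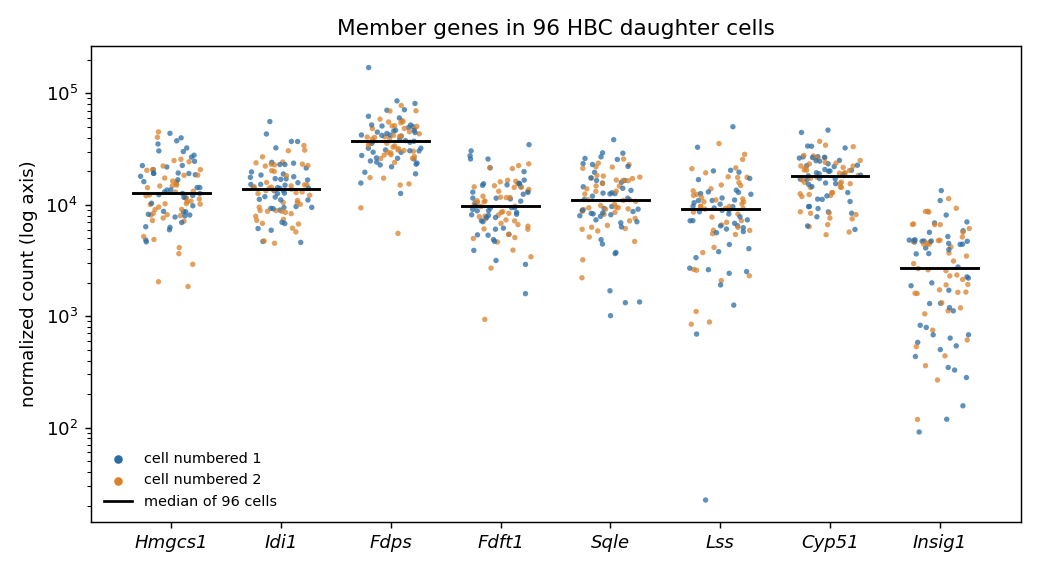
Normalized count (log axis) of each member in 96 cells, coloured by the number of the daughter cell, with the median as a bar. Fdps sits highest, Insig1 lowest and widest, and 1 Lss value of 22.4 lies far below the rest.

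Several members share reads or positions with other genes, and the counting is not stated to use strand. Idi1 shares 684 bases at 100% identity with Gm13502 (median 3068.5 counts), and the Fdft1 span overlaps that of Ctsb on the opposite strand by 774 bases (median 20998 counts for Ctsb). Cyp51 overlaps Akap9 on the opposite strand by 166 bases (median 2079 counts for Akap9). Fdft1 also matches Gm6781 at 97.4% over 1249 bases (median 30.5 counts). Gm3571, with a median of 276 counts, matches Fdps at 98.9% over 1062 bases. The levels of Idi1, Fdft1 and Fdps are to that extent uncertain. The other genes overlapping a member, Gm48342 (Hmgcs1), Gm48574 (Idi1), Gm22935 and Gm43738 (Fdps) and 4930483K19Rik (Lss), had a median count of 0.

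The cells carried the markers of their label. The summed TPM of Trp63, Krt14, Krt5 and Icam1 was 5886 (median, range 152.9 to 12321), with a count on at least 1 of them in 96 of 96 cells. The medians of Krt14 and Krt5 were 3672 and 2090 TPM, and Icam1 had counts in 86 cells. Of 27 markers of other cell types, 25 had a median count of 0. Squamous differentiation genes were not among the 27. Of these, Cnfn reached 423062 counts in a cell, against a median of 14.5, and Tgm1 61770, against 42.5. Immune markers had counts in 75 cells, with up to 358 summed TPM, and endothelial markers in 92, with up to 16.9. The summed TPM of all 27, at a median of 14.4, had a rho of 0.02 with the member level defined below.

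Across the 96 cells the members rose and fell together. Spearman's rho was above 0 for all 28 combinations of 2 members, with a median of 0.37 (range 0.19 to 0.52), where the median of all combinations of tested genes was 0.09. Of the 28, 21 reached 0.3, or 75%, against 5.87% of all combinations of tested genes. The tested genes, here and below, were not matched to the members in abundance. Only 0.678% of them had a higher median TPM than Fdps, the most abundant member, and 19.1% a higher one than Insig1, the least. The highest values were between Fdps and Cyp51 at 0.52, Fdps and Sqle at 0.51, Idi1 and Fdps at 0.49, and Cyp51 and Insig1 at 0.49. The lowest was between Hmgcs1 and Fdps at 0.19. The points share their libraries and each cell shares a mother with one other cell, so these are descriptions with n = 96.

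Scaling to each cell's own total (CPM) in place of spike-ins lowered these values. The median rho was then 0.28 (range 0.07 to 0.59), and 12 of 28 combinations reached 0.3, or 42.9%, against 0.52% of all combinations. Fdps and Cyp51 again stood highest, at 0.59. The median of all combinations fell from 0.09 to 0.01 under CPM. With the values centred on the mean of their set, the members' median rho under spike-in scaling was 0.37, against 0.07 for all combinations.

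Over the 48 pair means rho was higher. With spike-ins its median was 0.45, against 0.125 for all combinations of tested genes. Of the 28 combinations, 22 reached 0.3, against 15.6% of all combinations. With CPM the median was 0.36 and 17 of 28 reached 0.3, against 3.26%. Hmgcs1 and Fdft1 had the highest pair-mean rho with spike-ins, 0.65, and Fdps and Cyp51 the highest with CPM, 0.68.

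Within pairs the shared movement was weaker, as it was for all combinations, whose median with spike-ins was 0.03. The split of the members' co-variation between and within pairs was not computed. The rho of the differences between sisters, each entered in both orders, had a median of 0.15 over the 28 combinations (range 0.01 to 0.52), and 6 reached 0.3, against 3.55% of all combinations. With CPM the median was 0.09, 3 of 28 reached 0.3 and 4 fell below 0, against 2.01% of all combinations. With spike-ins Hmgcs1 and Idi1 had the highest value, 0.52, followed by Fdps and Fdft1 at 0.39. With CPM both were at 0.41. With spike-ins, Insig1, Sqle and Fdft1 each had a median of 0.12 with the other members within pairs, and of 0.46, 0.48 and 0.45 over pair means. With CPM their medians within pairs were 0.02, 0.12 and 0.1.

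**Figure D2:**
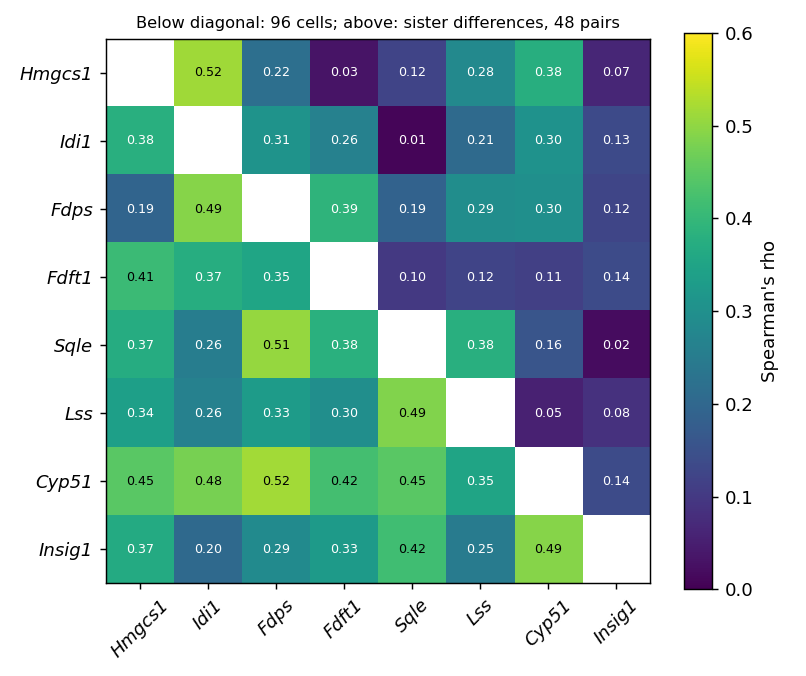
Spearman's rho for each combination of 2 members, over 96 cells below the diagonal and for sister differences over 48 pairs above it, with spike-in scaling. Values over cells lie between 0.19 and 0.52, and values of sister differences between 0.01 and 0.52.

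Sister cells often held different amounts of a member. The study called transcripts of the histone H3.3 asymmetric by a cutoff on their ratio, and the same cutoff is used here. A difference of at least 1.5-fold was reached in 192 of 384 member-by-pair values, or 50%, against 65.2% of all gene-by-pair values of tested genes. With CPM it was reached in 189, or 49.2%, against 53.7%, so the members' lower share was clearest with spike-in scaling. The tested genes were not matched to the members in abundance, and the part of abundance in the lower share was not tested. The size factors were set on the spike-ins themselves, so their spread after scaling is reduced by construction and is not an independent technical scale. The 13 spike-in transcripts with mean normalized counts in the members' range reached the cutoff in 22.9% of pairs (median, range 0% to 60.4%).

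With spike-in scaling Fdps was least often apart between sisters, with 13 of 48 pairs at the cutoff (27.1%, exact 95% binomial interval 15.3% to 41.8%, over pairs taken as independent). Idi1 followed with 18 and Cyp51 with 19 pairs. Hmgcs1 and Sqle reached it in 25 pairs each and Fdft1 in 28. Lss reached it in 31 pairs, and Insig1 in 33 (68.8%, interval 53.7% to 81.3%). The intervals of neighbours in this order overlap. With CPM Cyp51 had the fewest such pairs, 13, against 15 each for Fdps and Idi1, and Insig1 again had the most, 34. By the median ratio with spike-ins, Idi1 (1.34) lay closer than Fdps (1.37).

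The widest single differences were in Lss and Insig1. In pair 26, Lss had 27 counts in cell 1 and 13735 in cell 2, a 518-fold normalized difference. In pair 27, Insig1 had 83 counts in cell 1 and 2900 in cell 2, or 37.5-fold. The largest Sqle difference was 10.8-fold, in pair 41, with 1273 and 12913 counts. Only 1 pair had all 8 members apart by the cutoff, 13 pairs had 4, and no pair had 0.

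Sisters nevertheless resembled each other more than cells of different pairs for most members. The intraclass correlation, the share of log2 variance lying between pairs, was 0.41 for Idi1, 0.4 for Sqle, 0.33 for Hmgcs1, 0.31 for Cyp51, 0.3 for Fdft1, 0.27 for Insig1, 0.18 for Fdps and 0.04 for Lss. The median over members was 0.31, against 0.16 for all tested genes, and 7 of 8 exceeded that median. The tested genes were again not matched in abundance. No member reached 0.5, which 6.9% of tested genes did. With CPM the values were 0.53 for Idi1, 0.46 for Cyp51, 0.43 for Fdps and -0.04 for Lss, and 1 member, Idi1, reached 0.5, against 4.4% of tested genes. Centred on the mean of their set, the members' median fell to 0.16 with spike-ins, and that of all tested genes to near 0 (0.00135). Centring on sets of 4 pairs lowers any intraclass correlation by construction, so the part of the sets was not separated.

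Leaving out a member's own widest pair takes away sister variance by design, and with spike-ins it raised the intraclass correlation of every member. Without pair 47 that of Fdps rose from 0.18 to 0.34 and that of Idi1 from 0.408 to 0.498. Without pair 26 that of Lss rose from 0.04 to 0.14. Of the sum of squares of Lss, 48.5% lay between sisters, against 30% for Idi1.

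**Figure D3:**
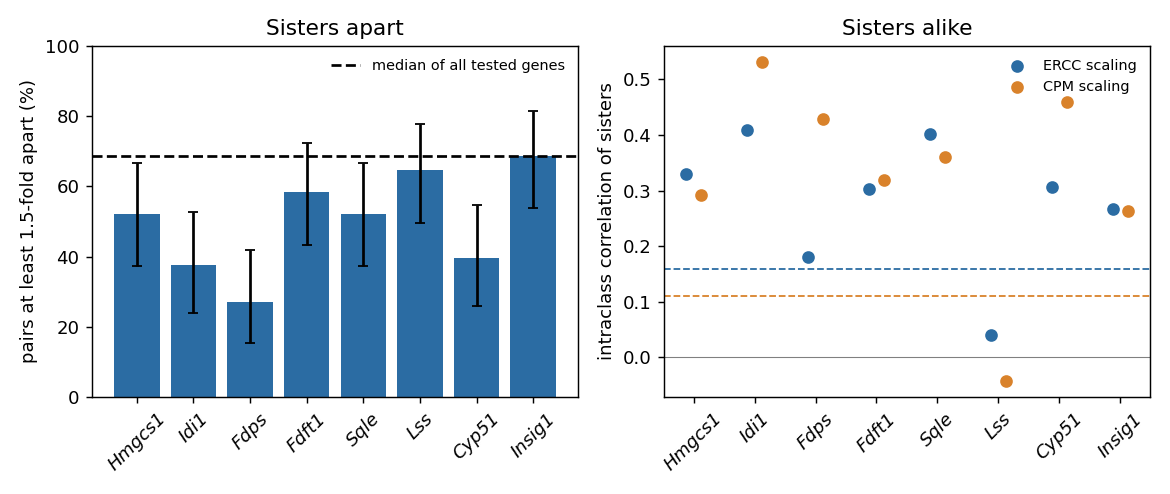
Left, percent of the 48 pairs in which each member differed at least 1.5-fold between sisters, with exact 95% binomial intervals and the median of tested genes (68.8%) dashed. Right, intraclass correlation by both scalings, with the medians of tested genes (0.16 and 0.11) dashed. With spike-ins Insig1 and Lss were most often apart, and Lss was least alike by both scalings.

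A member level was set for each cell as the mean of the 8 standardised log2 values. It ran from -1.68 in cell 2 of pair 14 to 1.91 in cell 1 of pair 47. Its intraclass correlation was 0.42 with spike-ins and 0.54 with CPM. Under each scaling this was slightly above the highest single member, Idi1, at 0.41 and 0.53. Of its sum of squares with spike-ins, 20.5% lay between the 12 sets, 49.9% between pairs within sets and 29.6% between sisters. Sets of 4 pairs take up some of the sum of squares even where they do not differ. Set means ran from -0.49 to 0.59, and what the sets stand for is not given in the sources used here.

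The sister with the higher level did not have all members higher. In 4 of 48 pairs all 8 members were higher in that sister, in 8 pairs 7 were, in 9 pairs 6 were, and in 15 pairs 5 were, with fewer in the remaining pairs. With CPM all 8 were higher in 2 pairs. The members themselves set which sister was higher, so a majority of members on that side is in part built in. Of the tested genes, between 40.3% (pair 29) and 76.3% (pair 47) were higher in that sister with spike-ins. With spike-ins pair 47 had the widest gap, 2.64, with normalized Fdps of 170460 and 15405, Lss of 50172 and 6961, and Idi1 of 36987 and 6170 in cells 1 and 2. Its cell 1 had the lowest size factor of all, 0.378, and 76.3% of tested genes were higher in that cell, and the part of this in the gap was not tested. With CPM 7 of 8 members were higher there and the gap was 1.46, under the 1.93 of pair 17.

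Pair 17 showed the next gap with spike-ins, 2.39, with Idi1 at 43194 and 8547, Cyp51 at 46797 and 6362, and Fdps at 71316 and 9393 in cells 1 and 2, and 65.8% of tested genes higher in cell 1. Pair 41, with a gap of 1.2, had 8 of 8 members and 54.1% of tested genes higher in its cell 2. The pair was picked by its gap and the members set the direction, so 8 of 8 is in part a product of selection. Only 4 of the 8 were at least 1.5-fold apart there. Lss in this pair was 1910 and 11064 and Sqle 1012 and 10942 in cells 1 and 2, while Hmgcs1 was 8215 and 9553. The pairs with the smallest gaps with spike-ins, 16, 30 and 32, differed in single members, such as Insig1 at 8096 and 1321 in pair 16 and Lss at 2516 and 28366 in pair 32. With CPM their gaps were 0.324, 0.0149 and 0.251, and pairs 43 and 6 had the smallest.

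**Figure D4:**
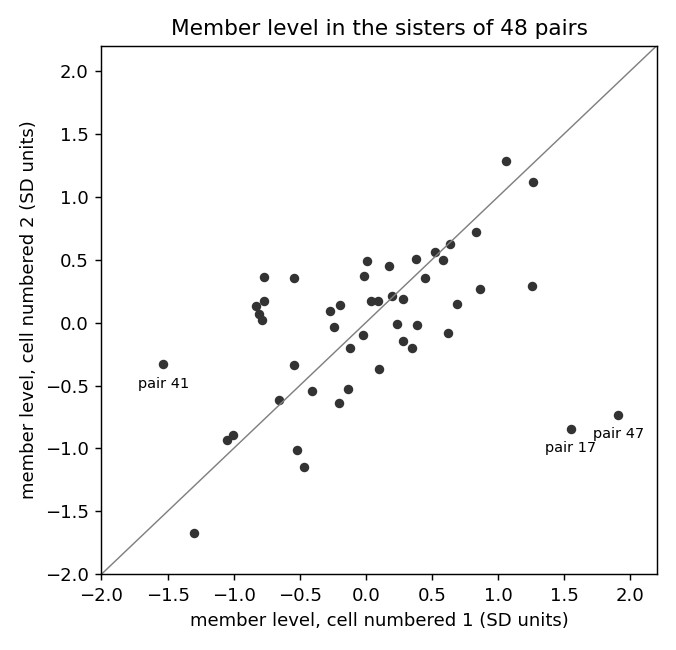
Member level (mean of standardised log2 values, in SD units) in 48 pairs with spike-in scaling, cell 1 on the horizontal axis and cell 2 on the vertical axis, with the line of equality. Pairs 47 and 17 lie far below the line and pair 41 above it.

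The other enzymes of cholesterol synthesis had the highest median rho with the members over cells of the lists examined. Of 15 listed, 14 had a row in the table and passed the filter, and 9 of these were in the top 1% of tested genes by rho with the member level (rho of 0.43 or more). Their median rho was 0.5, against 0.13 for all tested genes, and 13 of 14 reached 0.3, against 9.48% of tested genes. Msmo1, a sterol C4 demethylation oxidase, had a rho of 0.69, Acat2, which condenses acetyl-CoA, 0.68, and Sc5d, a late desaturase, 0.66. The lowest was Tm7sf2, a sterol reductase, at 0.22. Their level had a rho with the member level of 0.79 over cells and 0.52 within pairs, and of 0.72 and 0.47 with CPM.

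With CPM 10 of the 14 were in the top 1%, and 9 reached 0.3, against 0.802% of tested genes. Acat2 had 0.66, Msmo1 0.51 and Sc5d 0.51, while Dhcr7, a late sterol reductase, had 0.17.

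Gene by gene, those that sense sterols followed far less. None of 13 was in the top 1% by either scaling, and their median rho was 0.15 with spike-ins and 0.05 with CPM. Their level had a rho with the member level of 0.32 over cells and 0.33 within pairs, and of -0.02 and 0.01 with CPM. Srebf2, which encodes SREBP2, was the closest at 0.41 and 0.26. Insig2, the second INSIG gene, had 0.23 and 0.07. Sec24a, a coat protein of vesicles leaving the endoplasmic reticulum, had 0.25 and -0.03. Srebf1 had 0.14 and 0.05, and Pgrmc1 was the lowest at -0.03 and -0.14.

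Uptake and intracellular transport genes were mixed, with a median rho of 0.18 with spike-ins and 0.07 with CPM over the 14 of 15 listed that passed the filter. Of these, 2 were in the top 1% with spike-ins and 1 with CPM. Their level had a rho with the member level of 0.38 over cells and 0.3 within pairs, and of 0.15 and 0.21 with CPM. Stard4, a carrier of cholesterol between membranes, had 0.44 and 0.34, in the top 1% by both. Lipa, the lysosomal lipase, was lowest with spike-ins at -0.1. With CPM Lipa had -0.02, and Npc2 was lowest at -0.18.

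Storage and efflux genes had a median rho of 0.1 with spike-ins and -0.04 with CPM, and 7 of 12 listed passed the filter. Nr1h2, a sterol-activated receptor, had 0.23 and 0.16, Soat1, which esterifies cholesterol, 0.16 and -0.04, Nceh1, which hydrolyses the esters, 0.14 and 0.04, and Abcg1, an exporter, -0.07 and -0.19. Abca1 was counted in 2 of 96 cells. The level of the storage and efflux genes had 0.16 and -0.05 over cells. The isoprenoid branch after Fdps had a median of 0.17 and -0.06, and its level had 0.38 and -0.03 over cells. Rabggta, which prenylates Rab proteins, had 0.4 and 0.15, Nus1, of dolichol synthesis, 0.26 and -0.08, Fntb, of farnesyltransferase, 0.25 and 0.03, and Pggt1b, of another prenyltransferase, 0.03 and -0.21.

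Many fatty acid synthesis genes also had a high rho with the members. Of 14 that passed the filter, 5 were in the top 1% with spike-ins and 8 with CPM, with medians of 0.38 and 0.3. Scd2, a stearoyl-CoA desaturase, had 0.61 and 0.57, Fasn, fatty acid synthase, 0.56 and 0.34, Fads1, a delta-5 desaturase, 0.56 and 0.52, and Gpam, which starts glycerolipid synthesis, 0.02 and -0.25. The level of these genes had a rho with the member level of 0.65 over cells and 0.43 within pairs, and of 0.54 and 0.33 with CPM.

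The 10 genes outside the members with the highest rho under spike-in scaling included Msmo1, Acat2, Gm13502 (0.67), Acat3 (0.67), Sc5d, Scd2, Tubb4b (0.61), Tuba1c (0.6) and Gm3571 (0.59). Gm13502 matches Idi1 at 100% over 684 bases, Gm3571 matches Fdps at 98.9% over 1062 bases, and Acat3 matches Acat2 at 97.7% over 1477 bases, so their reads may be those of the parent genes and their likeness is uncertain. Tubb4b and Tuba1c encode tubulins, and with CPM they had 0.39 and 0.32.

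Cell cycle genes also varied with the members. All 15 genes of G2 and mitosis had a rho of at least 0.41 with spike-ins, 11 in the top 1%, and of at least 0.19 with CPM, 7 in the top 1%. Their median was 0.45 with spike-ins, above that of the fatty acid genes, and 0.28 with CPM, below it. Cdc20 was highest at 0.55 and 0.39. The level of these 15 genes had a rho with the member level of 0.52 over cells and 0.55 within pairs, and 0.31 and 0.45 with CPM. By the level of the list, DNA replication genes followed less over cells than those of G2 and mitosis, at 0.25 and 0.11. None of the 15 was in the top 1%. Within pairs their level had 0.57 and 0.28.

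Other lists did not follow under both scalings. The level of basal cell genes had a rho of 0.19 with spike-ins and -0.09 with CPM, that of squamous differentiation genes 0.07 and -0.24, and that of the integrated stress response 0.01 and -0.15. The member level had a rho of -0.4 with the spike-in share of counts under spike-in scaling and 0.2 under CPM, and of -0.07 and 0.05 with the mitochondrial share. With a cell's counts on genes it had 0.38 and 0.29, and with its number of genes with a count 0.34 and -0.09. Within pairs the rho with the spike-in share was -0.45 and 0.03, and with counts on genes 0.08 and -0.01. The part of depth in these values was not tested.

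**Figure D5:**
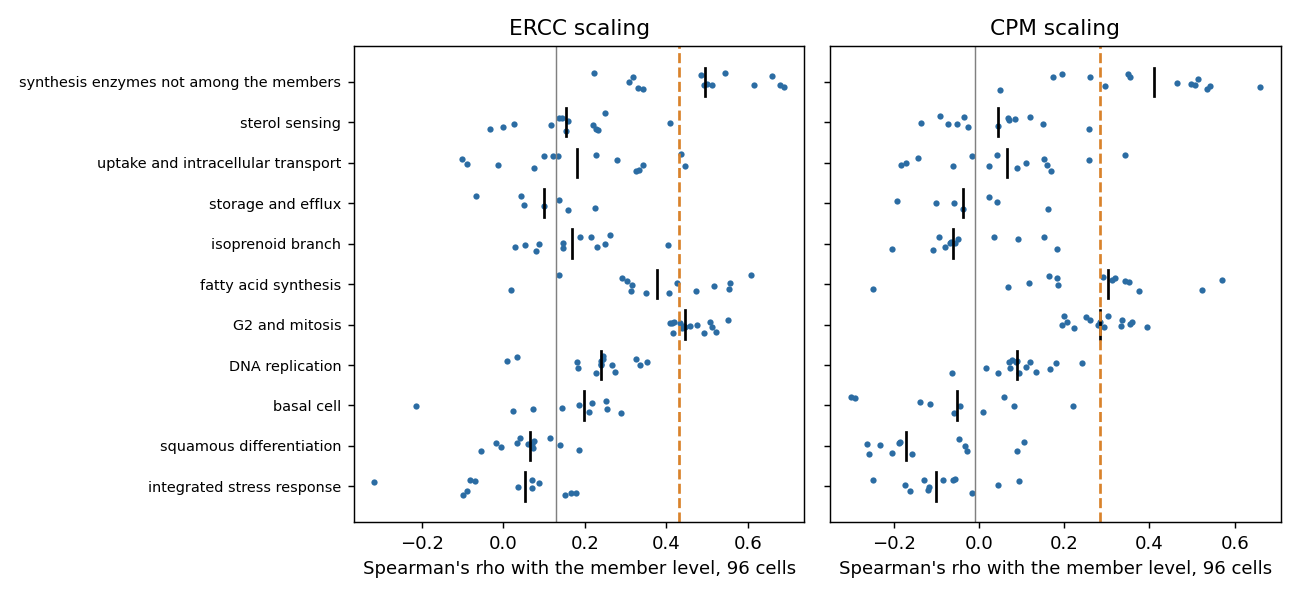
Spearman's rho over 96 cells of each listed gene with the member level, by list, with spike-in scaling on the left and CPM on the right. Black bars are list medians, the grey line the median of tested genes and the dashed line the top 1%. The synthesis enzymes, with medians of 0.5 and 0.41, lie furthest right.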

How the data were processed

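The deposited count table gives whole-number counts per gene and spike-in, made by the authors from single-cell libraries (G&T-seq, oligo-dT capture, ERCC spike-ins, PCR amplification). The submitters' processing notes name Trimmomatic 0.39, STAR 2.7.11a and StringTie 2.2.1, and the build GRCm38. Deposited TPM per cell came from StringTie and was used for levels between genes, marker sums and as an alternative scale. PCR copies were not removed by molecular identifiers, so reads are not independent molecules.

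Counts were divided by ERCC size factors (median of ratios over 22 of 92 transcripts counted in all cells), and log2(value + 1) was taken with Python 3.11.15, numpy 2.4.6, scipy 1.17.1 and pandas 2.3.3. CPM was the chief alternative. Genes with at least 10 counts in at least 10% of cells were tested. Gene likeness used Spearman's rho with the member level, leaving a member out of its own level. Similar sequences were sought with blastn 2.17.0 in GENCODE M21 transcripts (at least 95% identity over 150 bases for members and 500 for the others). No 2 cells had identical counts. Correlation and intraclass steps were tested on simulated data. Members and lists were chosen with earlier results of these data known. Named genes were all members, in each of the first 6 lists the 3 highest and the lowest by rho with spike-in scaling, Srebf2, Srebf1 and Insig2, the 10 most alike genes outside the members, the 3 widest and 3 closest pairs, and overlapping genes. Some genes of these lists are not reported here by name. Others named were chosen after their values were seen. The 12 sets come from deposited names and may be batches.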

Additional observations from a re-analysis of the deposited data

How the results depend on the processing

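Of 186 alternative values, 171 stayed within the members' spread or within 1.5 times a count. Most of the 186 left out 1 set and so shared most of their cells, and the spread can be wide. For sister differences it was 0.13 around a median of 0.15, so the 0.09 with CPM was counted as unchanged. The tally is therefore not a measure of how firm the values are. The median rho of members over cells, 0.37, became 0.28 with CPM, 0.25 in the cells numbered 2 and 0.28 with the linear part of depth measures taken out, where the median of all combinations was 0.01. The share of values at least 1.5-fold apart, 50%, was 29.9% at a cutoff of 2 and 15.4% at a cutoff of 3. The median intraclass correlation, 0.31, was 0.16 after centring on set means, where that of all tested genes was near 0 (0.00135), a fall that centring on 4 pairs brings in part by construction. The correlation with fatty acid genes, 0.65, was 0.54 with CPM and 0.48 with a median of ratios over genes. That with mitosis genes, 0.52, was 0.31 with CPM, 0.23 with a median of ratios over genes and 0.32 with TPM. That with the spike-in share, -0.4, turned to 0.200 with CPM, 0.21 with a median of ratios over genes and 0.14 with TPM. These scalings use each cell's own RNA in place of spike-ins, and the cause of the changes was not tested.

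Leaving out 1 set of 8 cells at a time gave 0.35 to 0.4 for rho over cells, 0.12 to 0.2 for sister differences, 48.6% to 51.4% for the 1.5-fold share, 0.26 to 0.38 for the intraclass correlation, 0.76 to 0.82 for the other synthesis enzymes, 0.59 to 0.73 for fatty acid genes, 0.44 to 0.57 for mitosis genes and -0.47 to -0.34 for the spike-in share. The synthesis enzymes in the top 1% numbered 8 to 9. Leaving out pair 47, chosen after seeing the data, changed none of these directions. Sister pairs were compared within 1 group, with no test between groups. Shared reads and 1 library per cell limit the values.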
